A study of Mus musculus with 6 samples.

Results

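The transcripts of 5 genes of electrical signalling in the heart were followed across 6 mouse hearts: Scn4b, a sodium channel beta subunit, the connexins Gja1 and Gja5, and the pacemaker channels Hcn2 and Hcn4. They were chosen by symbol, and all 5 of 5 were found among the 49315 genes of the count table. Bulk RNA sequencing had been done on hearts of C57BL/6 mice, 3 labelled wild-type (Txnip WT) and 3 labelled conditional knock-in (Txnip C247S mutant). Txnip encodes the thioredoxin-interacting protein, and in C247S a serine stands in place of the cysteine through which it is known to bind thioredoxin. The labels name MerCreMer, a tamoxifen-inducible recombinase, with 4-hydroxytamoxifen treatment for the samples of both genotypes. They give no promoter for it and no age, sex or batch, and whether wild-type animals had the recombinase is unclear from them. The design text counts 3 hearts per genotype, and p-values set a genotype difference against the spread between these hearts. The comparison asks which transcripts differ between the labelled genotypes. Effects of the replaced residue, of the lower Txnip transcript given below and of any recombinase difference cannot be told apart.

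The heartbeat spreads as an electrical wave. Pacemaker cells of the sinoatrial node fire on their own, and HCN channels, opened by hyperpolarisation and sensitive to cyclic AMP, carry part of the current that brings them to threshold. Voltage-gated sodium channels give the fast upstroke in working muscle and Purkinje fibres, and their beta subunits tune the gating and surface expression of the pore-forming alpha subunit. Connexins form the gap junctions through which current passes from cell to cell. Gja1 encodes Cx43, the main connexin of ventricular muscle, and Gja5 encodes Cx40, which is found in the atria, the His-Purkinje system and the endothelium of arteries.

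Library totals ran from 14146048 to 15620476 counts, and edgeR's quasi-likelihood test was run on the 12777 genes that passed a filter on low counts, all 5 genes among them. Txnip, the targeted gene, was counted at 723, 791 and 740 CPM (TMM-normalised counts scaled to library size) in wild-type hearts. Knock-in hearts had 438, 391 and 429 CPM (log2 fold change −0.84 ± 0.09 SE, edgeR adjusted p = 0.00379). With wild-type replicate 2 left out the adjusted p was 0.0525, and with knock-in replicate 3 left out it was 0.0642. Of the 31-base words of its transcript, 19.9% also occur in other genes on either strand. These are chiefly words of Gm15441, an antisense gene that overlaps Txnip on the opposite strand. A pair of hearts stood apart within their genotypes. Counts of wild-type replicates 1 and 2 differed by a chi-square of 6.71 per degree of freedom, against 20.0 and 19.0 for the pairs with wild-type replicate 3. Counts of knock-in replicates 1 and 3 differed by 7.0, against 25.1 and 14.0 for the pairs with knock-in replicate 2.

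Of the 12 atrial markers listed, Sln, Myl7, Bmp10 and Mybphl had 0 to 9 counts per library, and the other 8 passed the filter, among them Nppa, Kcnj5 and Kcnj3. For comparison, the ventricular list of 10 genes, which holds Myl2 and Myl3, summed to 31710 to 36220 CPM in wild-type and 38230 to 41300 CPM in knock-in hearts. Of the factors known from nodal tissue, Isl1 had 0 counts in all 6 libraries, which allows up to 0.192 to 0.212 CPM per library (3 counts, counting error only). Tbx3 had 53 to 88 counts, Tbx18 24 to 36 and Shox2 2 to 9. In bulk tissue, fewer cells of a type and less RNA per cell cannot be told apart.

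None of the 5 genes passed the test between the genotypes. Adjusted over all tested genes, 0 of the 5 were called (adjusted p under 0.05), against 0.297% of all 12777 tested genes, and DESeq2 also called 0. At an unadjusted p under 0.05 there was 1, Gja5, which was higher in the knock-in hearts; 9.97% of all tested genes passed that threshold, 4.74% higher and 5.23% lower. In each of the 5 genes the values of the genotypes overlapped, whereas they did not in 16.1% of the tested genes. The median log2 fold change of the 5 was 8.8e-05, beside −0.0068 over all tested genes.

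**Figure D1:**
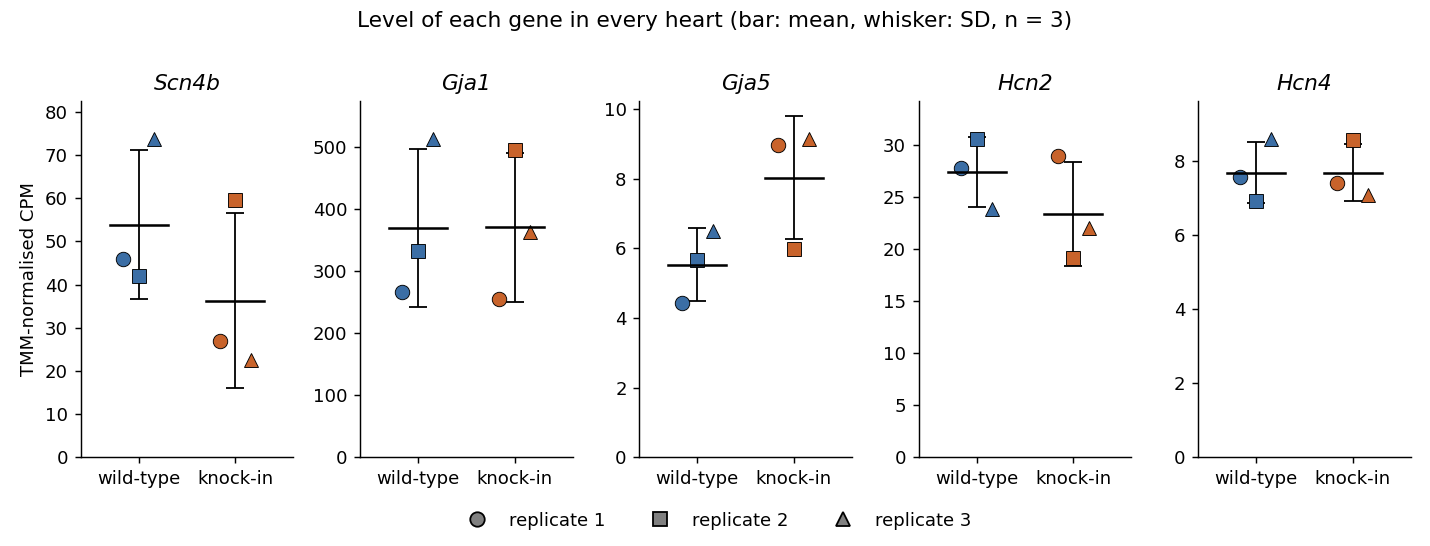
TMM-normalised CPM of each gene in every heart, wild-type in blue and knock-in in orange, with a marker shape per replicate number, the mean as a bar and the SD as a whisker (n = 3). The genotypes overlap in all 5 panels, and wild-type replicate 3 and knock-in replicate 2 are the highest hearts of their genotypes for Scn4b, Gja1 and Hcn4.

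Per kilobase of transcript, Gja1 was by far the most abundant. Its level was 121 ± 36.1 RPKM (CPM per kilobase of the longest RefSeq-matched transcript; mean ± SD over the 6 hearts, both genotypes). Scn4b followed at 9.05 ± 3.88 RPKM and Hcn2 at 7.94 ± 1.38 RPKM, and these neighbours in the order did not differ beyond their spread. Gja5 stood at 2.18 ± 0.61 RPKM and Hcn4 at 1.26 ± 0.12 RPKM. The order of these last genes depends on the length used: divided by the union of all annotated exons, Gja5 stood at 1.18 ± 0.33 and Hcn4 at 1.26 ± 0.12. Gja1 then came to 36.1 ± 10.8 and still led the order.

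Scn4b (ENSMUSG00000046480, chromosome 9, 45138395 to 45154152, plus strand, GRCm38) has 5 exons and overlaps no other annotated gene. It encodes the beta-4 subunit, which is known for its part in the resurgent current of sodium channels. Wild-type hearts had 46.0, 42.1 and 73.6 CPM of it, knock-in hearts 26.9, 59.5 and 22.5 CPM. Replicates 1 and 3 of the knock-in were the lowest of all 6 hearts, but knock-in replicate 2 lay above wild-type replicates 1 and 2. The mean was 53.9 ± 17.2 CPM in wild-type and 36.3 ± 20.2 CPM in knock-in hearts (SD, n = 3), a log2 fold change of −0.57 ± 0.42 (SE; 95% interval −1.59 to 0.46, edgeR adjusted p = 0.745). By exact permutation of the genotypes over the 6 hearts, two-sided, p was 0.3, where 3 against 3 allows no p under 0.1. The interval spans negative and positive values.

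The estimate for Scn4b was set by single hearts more than that of any other of the 5. Leaving out wild-type replicate 3 gave a log2 fold change of −0.28. Leaving out knock-in replicate 3 gave −0.32, knock-in replicate 1 gave −0.38, and knock-in replicate 2 gave −1.12 (edgeR adjusted p = 0.0786). Without both wild-type replicate 3 and knock-in replicate 2 it was −0.83 ± 0.12 with an edgeR adjusted p = 5.4e-04. That fit was chosen after the values were seen, holds 2 hearts a genotype and leaves out the highest Scn4b value of each genotype, which narrows the spread by construction. It called 392 genes in all, against 38 with all hearts.

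Scn4b varied more between hearts of the same genotype than most genes. Its pooled within-genotype SD was 0.61 on the log2 CPM scale, higher than in 96.8% of all tested genes, whose median was 0.19. Among the 3533 tested genes within 2-fold of its mean level, it exceeded 99.3%. Gja1 came next, with an SD of 0.48, above 92.6% of all tested genes and 99.0% of the 479 of similar level. Counting error alone gives a coefficient of variation of about 3.88% for Scn4b and 1.35% for Gja1, against a measured 31.9% (wild-type) and 55.7% (knock-in) for Scn4b and 34.4% and 32.4% for Gja1. Hcn4, by contrast, was among the steadier genes, with an SD of 0.15, above 23.9% of the genes of similar level, and its coefficients of variation of 10.9% and 10.1% were close to the 9.37% of counting error.

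**Figure D2:**
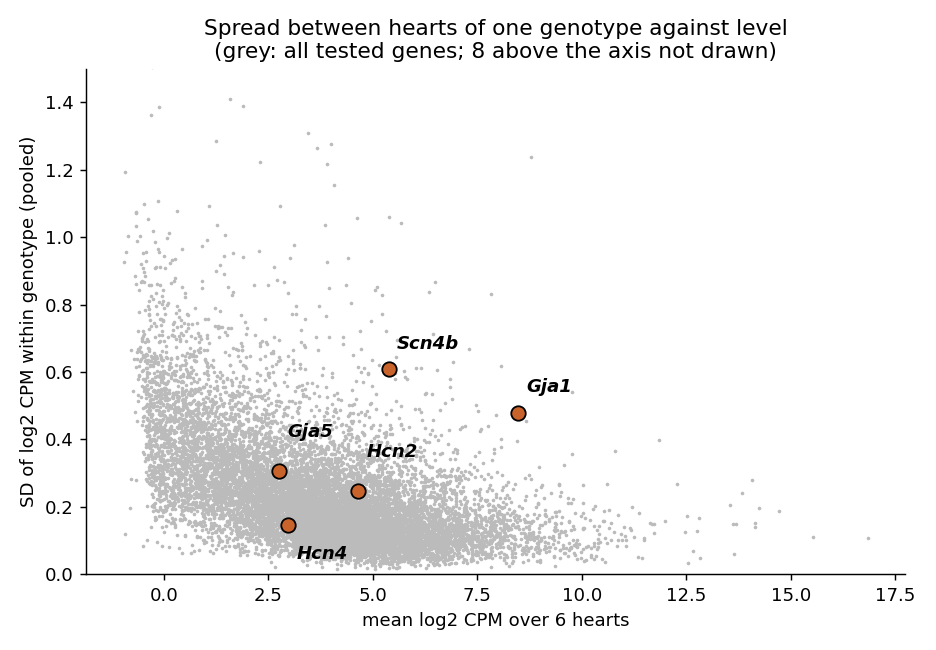
Pooled SD of log2 CPM within genotype (vertical axis) against mean log2 CPM over the 6 hearts (horizontal axis) for every tested gene in grey and the 5 genes in orange. Scn4b (SD 0.61) and Gja1 (SD 0.48) lie at the upper edge for their level, and Hcn4 (SD 0.15) lies within the bulk of genes; 8 genes above 1.5 are not drawn.

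Among the sodium channel subunits listed, none passed the test. Of 12 such genes, Scn4b included, 5 were tested, and neither edgeR nor DESeq2 called any (0 of 5). Before adjustment, 1 was higher and 1 lower at a p under 0.05, against 4.74% and 5.23% of all tested genes. A positive log2 fold change was found in 1 and a negative in 4, where 48.3% of all tested genes were positive. The median was −0.33, against −0.0068 over all tested genes, and became −0.18 without wild-type replicate 3 or without knock-in replicate 1. In both of those fits 6 such genes passed the filter, so the medians are not of the same genes. Scn10a, an alpha subunit known from sensory neurons and cardiac conduction tissue, had the smallest p. It lay at 1.16, 1.73 and 2.07 CPM in wild-type and 2.47, 2.83 and 3.75 CPM in knock-in hearts, on 17 to 55 counts per library. Every knock-in value lay above every wild-type value (0.86 ± 0.29 SE on the log2 scale, edgeR adjusted p = 0.322). Scn7a, a sodium-sensing relative of the alpha subunits, lay the other way, at 11.7 ± 0.85 and 9.33 ± 0.35 CPM (SD, n = 3; −0.33 ± 0.14 SE, edgeR adjusted p = 0.449), again without overlap.

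Scn4a, the alpha subunit of skeletal muscle, was counted at 12.4, 13.2 and 23.8 CPM in wild-type and 11.1, 18.8 and 12.6 CPM in knock-in hearts. Like Scn4b, it was highest in wild-type replicate 3 and knock-in replicate 2 of each genotype. Its log2 fold change of −0.22 ± 0.28 became 0.15 without wild-type replicate 3.

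Gja1 (ENSMUSG00000050953, chromosome 10, 56377330 to 56402513, plus strand) encodes Cx43, the gap junction protein of the intercalated disc. It was counted at 266, 332 and 512 CPM in wild-type and 255, 495 and 363 CPM in knock-in hearts. The lowest hearts of both genotypes and the highest hearts of both genotypes were nearly level, so the ranges covered each other. Means of 370.4 ± 127 and 370.9 ± 120.2 CPM (SD, n = 3) gave a log2 fold change of 0.0021 ± 0.32 (SE; 95% interval −0.76 to 0.77, edgeR adjusted p = 0.999). Because of the spread between hearts, a difference of up to about 0.76 on the log2 scale in either direction lies within this interval. The sign turned under upper-quartile scaling (−0.0081) and library-size scaling (−0.034), so no direction is given.

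Gja5 (ENSMUSG00000057123, chromosome 3, 96904693 to 97077416, plus strand) was the gene of the 5 with the smallest p. It was counted at 4.43, 5.67 and 6.50 CPM in wild-type and 8.97, 5.99 and 9.12 CPM in knock-in hearts, on 65 to 138 counts per library. Knock-in replicates 1 and 3 lay above all wild-type hearts, and knock-in replicate 2 lay below wild-type replicate 3. Means of 5.53 ± 1.04 and 8.03 ± 1.77 CPM (SD, n = 3) gave a 1.45-fold difference, a log2 fold change of 0.54 ± 0.22 (SE; 95% interval 0.063 to 1.01, unadjusted p = 0.0300, edgeR adjusted p = 0.432). It ranked at place 886 of 12777 by p, and an exact two-sided permutation test gave p = 0.2. The value stayed positive in all 16 alternative fits, from 0.40 to 0.85. It was called in 1 of them, without both wild-type replicate 3 and knock-in replicate 2 (edgeR adjusted p = 0.0218), a fit chosen after the values were seen that leaves out the highest wild-type and the lowest knock-in value.

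Gja5 lies near the edited gene. Txnip ends at 96561883 on chromosome 3 and the annotated Gja5 gene begins 343 kb further on, at 96904693. The RefSeq-matched Gja5 transcript starts beyond that, at 97032416, and genes between these 2 starts were not counted here. Of the 21 genes annotated between Txnip and the start at 96904693, 10 were tested and 0 were called by edgeR or DESeq2, where edgeR called 0.297% of all tested genes. At an unadjusted p under 0.05, 1 was lower, against 5.23% of all tested genes. Log2 fold changes were positive in 6 and negative in 4, where 48.3% of all tested genes were positive. Beside −0.0068 over all tested genes, the median of the 10 was 0.083. With knock-in replicate 1 left out that median was 2.0e-04, and with wild-type replicate 1 left out it turned to −0.015. The gene with the smallest p, Ankrd35, an ankyrin-repeat gene, lay lower in the knock-in hearts (−0.70 ± 0.30 SE, edgeR adjusted p = 0.468).

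How reads were assigned bears more on Gja5 than on the others. Its annotated span is stretched by 1 transcript of 3 that starts at 96904693, while the other 2 start at 97032416. Of the distinct 31-base words of that long transcript, 25.6% also occur in transcripts of other genes, chiefly Zfp697, against 0.586% for the RefSeq-matched transcript. Exons of Gpr89 on the opposite strand cover 165 bases, 2.87% of the exonic bases of Gja5, and the strand setting of the counting is not given in the sources used here. For the RefSeq-matched transcripts of Scn4b and Gja1 the share of such words was 0%, and for Hcn2 and Hcn4 it was 0.158% and 0.0657%.

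The start regions of the connexin genes are shown as description, chosen after these genes were seen to vary differently between hearts. Whether the sequences bear on that was not tested. The windows hold the 250 bases before the RefSeq start, GRCm38.p6, plus strand, written 5′ to 3′, with matches to the motifs searched in capitals: chr10:56377050-56377299 for Gja1 and chr3:97032152-97032401 for Gja5.
Gja1: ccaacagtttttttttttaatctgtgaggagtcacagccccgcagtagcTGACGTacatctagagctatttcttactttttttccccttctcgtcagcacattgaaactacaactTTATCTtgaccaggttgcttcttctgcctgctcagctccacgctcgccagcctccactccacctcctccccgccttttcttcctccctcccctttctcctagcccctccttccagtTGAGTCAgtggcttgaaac
Gja5: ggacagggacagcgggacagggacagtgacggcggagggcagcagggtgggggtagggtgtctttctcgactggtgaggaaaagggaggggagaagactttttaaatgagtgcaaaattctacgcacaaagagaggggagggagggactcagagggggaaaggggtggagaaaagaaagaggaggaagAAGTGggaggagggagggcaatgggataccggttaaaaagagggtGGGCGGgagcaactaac

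Both strands were searched for 8 motifs: the GC box GGGCGG, the clock E-box CACGTG, the T-box half-site GGTGTG, the NKX2-5 core AAGTG, the GATA core AGATAA, the AP-1 site TGANTCA, the CRE half-site TGACGT and the TATA box TATAAA. The Gja1 window held a CRE half-site, a GATA core and an AP-1 site, which occur in 6.47%, 9.99% and 6.75% of the 32851 windows in the table. The Gja5 window held an NKX2-5 core and a GC box, which occur in 40.7% and 32.7% of all windows. They shared no motif. Of the other members, Hcn2 held 3 GC boxes, Hcn4 held 2, and Scn4b held none of the 8. The Scn4b window, chr9:45138374-45138623, lies mostly inside the gene as annotated, which starts at 45138395. Its lack of matches therefore does not describe the bases before that annotated start. These matches describe the letters only and are not measured binding.

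No connexin or pannexin passed the test. Of 22 connexin and pannexin genes listed, 8 had 0 counts in all libraries and 6 were tested. All 6 were positive, where 48.3% of all tested genes were, with a median of 0.33, and 0 were called by edgeR or DESeq2; 2 were higher at an unadjusted p under 0.05, Gja5 and Gjc1, against 4.74% of all tested genes. Without knock-in replicate 3 the median was 0.20 and 0 were below that threshold. The positive sign of the lowest of them, Gja1, depends on the scaling, and that of Gja4 turned to −0.024 without wild-type replicate 3 and −0.083 without knock-in replicate 3. Gjc1 encodes Cx45, a connexin of nodal and conduction tissue. It lay at 10.1, 11.1 and 8.64 CPM in wild-type and 12.6, 12.5 and 14.0 CPM in knock-in hearts, so that every knock-in heart exceeded every wild-type heart (log2 fold change 0.39 ± 0.14 SE, edgeR adjusted p = 0.383).

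Other connexins followed single hearts. Gja4, the Cx37 of arterial endothelium, was lowest in wild-type replicate 3 (6.22 CPM) and knock-in replicate 2 (4.94 CPM), with 8.72 to 11.5 CPM in the other hearts (log2 fold change 0.14 ± 0.29 SE). Gja3, which encodes Cx46, stood at 7.07 ± 0.68 and 8.60 ± 2.37 CPM (SD, n = 3; 0.28 ± 0.21 SE), and this value ran from 0.062 (knock-in replicate 2 left out) to 0.46 (knock-in replicate 1 left out). The pannexin Panx1 stood at 1.26 ± 0.67 and 1.64 ± 0.91 CPM, and its log2 fold change of 0.37 ± 0.50 (SE) ran from 0.083 to 0.87 with single hearts left out.

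The Gja1 to Gja5 count ratio, which does not depend on scaling, was 60.2, 58.6 and 78.9 in wild-type and 28.4, 82.7 and 39.8 in knock-in hearts. Knock-in replicate 2 had the highest ratio of all and the other knock-in hearts the lowest. The difference of the mean log2 ratios, knock-in minus wild-type, was −0.52, beside a pooled SD of 0.58 (exact two-sided permutation p = 0.4).

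**Figure D3:**
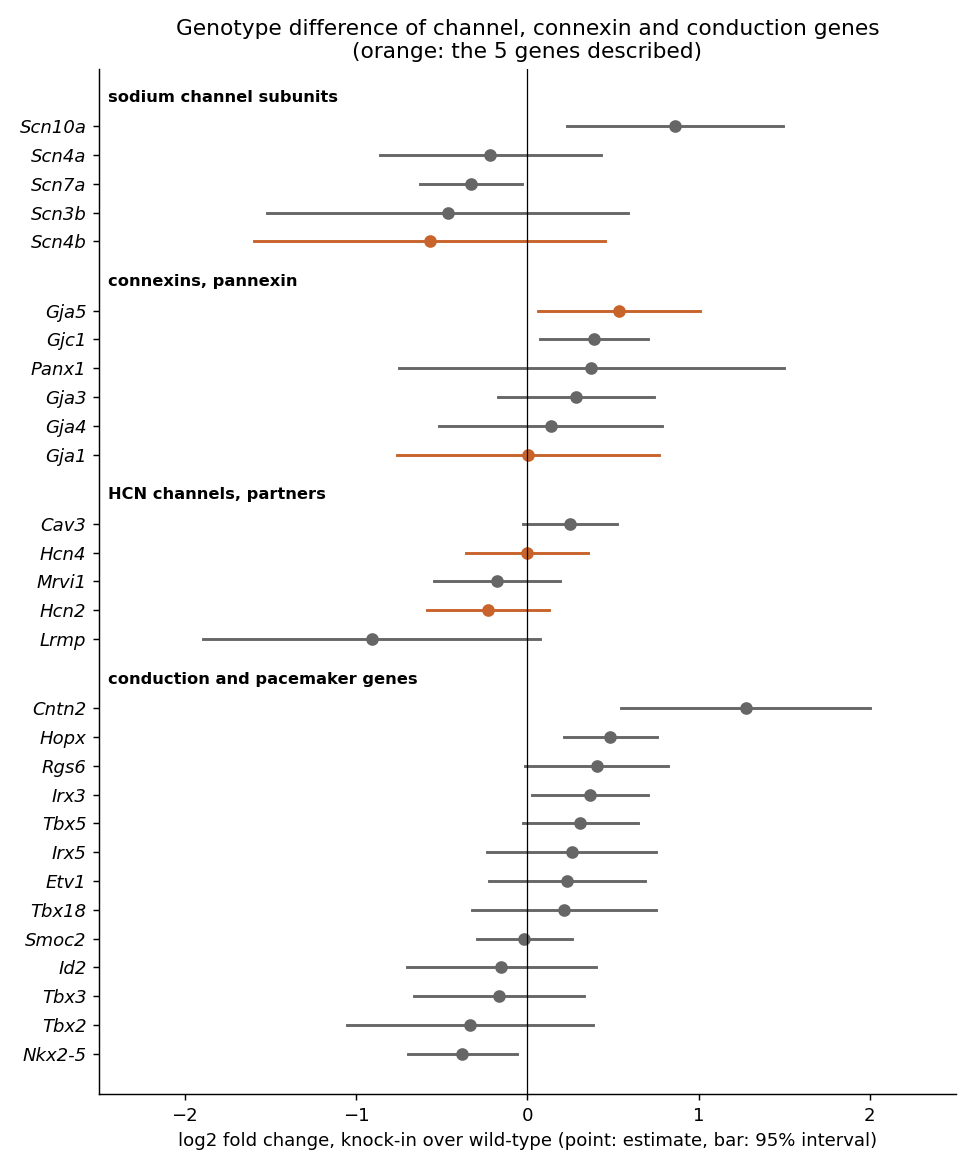
Log2 fold change, knock-in over wild-type (horizontal axis), with its 95% interval, unadjusted for the number of genes, for every tested gene of 4 lists, the 5 genes in orange. The intervals of Scn4b (−1.59 to 0.46) and Gja1 (−0.76 to 0.77) are wide, and that of Gja5 (0.063 to 1.01) lies above 0 before adjustment. None of the genes drawn was called over all tested genes in the main edgeR fit, whereas DESeq2 called Hopx and Cntn2.

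Hcn2 (ENSMUSG00000020331, chromosome 10, 79716634 to 79736108, plus strand) encodes the HCN isoform known from ventricular muscle as well as nodal tissue. It was counted at 27.8, 30.5 and 23.9 CPM in wild-type and 28.9, 19.2 and 22.0 CPM in knock-in hearts. The ranges overlapped, with knock-in replicates 2 and 3 the lowest of the 6 hearts. Means of 27.4 ± 3.35 and 23.4 ± 5.03 CPM (SD, n = 3) gave a log2 fold change of −0.23 ± 0.16 (SE; 95% interval −0.59 to 0.13, edgeR adjusted p = 0.717; exact two-sided permutation p = 0.3). The sign was negative in all 16 alternative fits, from −0.40 without knock-in replicate 1 to −0.094 without knock-in replicate 2.

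Hcn4 (ENSMUSG00000032338, chromosome 9, 58823412 to 58863175, plus strand) encodes the main pacemaker isoform of the sinoatrial node. It was counted at 7.56, 6.92 and 8.57 CPM in wild-type and 7.41, 8.56 and 7.08 CPM in knock-in hearts. The hearts of both genotypes filled the same range. Means of 7.68 ± 0.83 and 7.68 ± 0.77 CPM (SD, n = 3) gave a log2 fold change of 8.8e-05 ± 0.16 (SE; 95% interval −0.36 to 0.36, edgeR adjusted p = 0.9997). Log2 fold changes beyond 0.36 in either direction lie outside that interval. The sign turned in 7 of 16 alternative fits, which spanned −0.075 to 0.086.

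The Hcn2 to Hcn4 count ratio was 3.68, 4.41 and 2.78 in wild-type and 3.90, 2.24 and 3.11 in knock-in hearts. It was lowest in wild-type replicate 3 and knock-in replicate 2 of each genotype, where Hcn2 was low and Hcn4 high. The genotypes did not differ beyond their spread (difference of mean log2 ratios −0.24, knock-in minus wild-type, pooled SD 0.37; exact two-sided permutation p = 0.5).

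Of the isoforms and partners of HCN channels, 8 genes were listed and 5 were tested. None were called (0 by edgeR, 0 by DESeq2), 0 were at an unadjusted p under 0.05, and 2 had positive and 3 negative values with a median of −0.18, which ran from −0.27 without knock-in replicate 1 to −0.094 without knock-in replicate 2. Hcn3, another isoform, had 0 to 3 counts per library. The smallest p was that of Lrmp, a regulator of Hcn4 gating, with 28, 24 and 8 counts in wild-type and 13, 10 and 10 counts in knock-in libraries (−0.91 ± 0.45 SE, edgeR adjusted p = 0.545). Its ranges overlapped through wild-type replicate 3, the lowest of all 6 hearts, and the value ran from −1.28 to −0.60 with single hearts left out. Cav3, the muscle caveolin with which HCN and sodium channels are associated, stood at 0.25 ± 0.12 (SE; edgeR adjusted p = 0.552).

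Genes of the conduction system and of pacemaker development lay on both sides, without a call by edgeR. Of 17 listed, 13 were tested: 8 had positive and 5 negative log2 fold changes, where 48.3% of all tested genes were positive. Their median was 0.23 against −0.0068 over all tested genes, and it ran from 0.13 without wild-type replicate 2 to 0.38 without knock-in replicate 1. At an unadjusted p under 0.05, 3 were higher, against 4.74% of all tested genes, and 1 was lower, against 5.23%. Hopx, a homeodomain-only cofactor of cardiac muscle and conduction tissue, had the smallest p, at 193, 267 and 212 CPM in wild-type and 297, 327 and 317 CPM in knock-in hearts (0.49 ± 0.12 SE, edgeR adjusted p = 0.178). DESeq2 called 2 of the 13, Hopx (adjusted p = 0.0462) and Cntn2 (adjusted p = 0.0199).

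Several genes named next were chosen after their values were seen. Cntn2, contactin-2, marks the cells of the ventricular conduction system in the mouse. It lay at 2.79, 2.42 and 2.84 CPM in wild-type and 5.66, 3.82 and 10.1 CPM in knock-in hearts, on 35 to 148 counts. Every knock-in heart exceeded every wild-type heart, and knock-in replicate 3 was the highest by far (log2 fold change 1.28 ± 0.33 SE, edgeR adjusted p = 0.190). Without knock-in replicate 3 the value was 0.82, and without knock-in replicate 2 it was 1.56 and passed the test (edgeR adjusted p = 0.00880). Irx3, a transcription factor of the His-Purkinje system known to raise Gja5 there, stood at 17.8 ± 1.72 and 23.0 ± 4.46 CPM (SD, n = 3; 0.37 ± 0.15 SE, edgeR adjusted p = 0.456), and its values did not overlap. Without knock-in replicate 3, at 28.1 CPM, the value was 0.20.

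The transcription factors known for acting on Gja5 did not all lie on the same side. Tbx5, an activator, stood at 0.31 ± 0.15 (SE; edgeR adjusted p = 0.544). Nkx2-5, its partner, stood at −0.38 ± 0.14 (SE; edgeR adjusted p = 0.397). Tbx3, a repressor of working-muscle genes in the nodes, stood at −0.17 ± 0.22 and turned to 0.063 without both wild-type replicate 3 and knock-in replicate 2. Knock-in replicate 2, the knock-in heart with the lowest Gja5, also had the lowest Cntn2, Irx3, Nkx2-5, Tbx3, Tbx2, Id2 and Smoc2 of its genotype. It had the highest Hopx, Rgs6, Tbx5, Irx5, Etv1 and Tbx18 of its genotype, and the highest Hcn4.

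**Figure D4:**
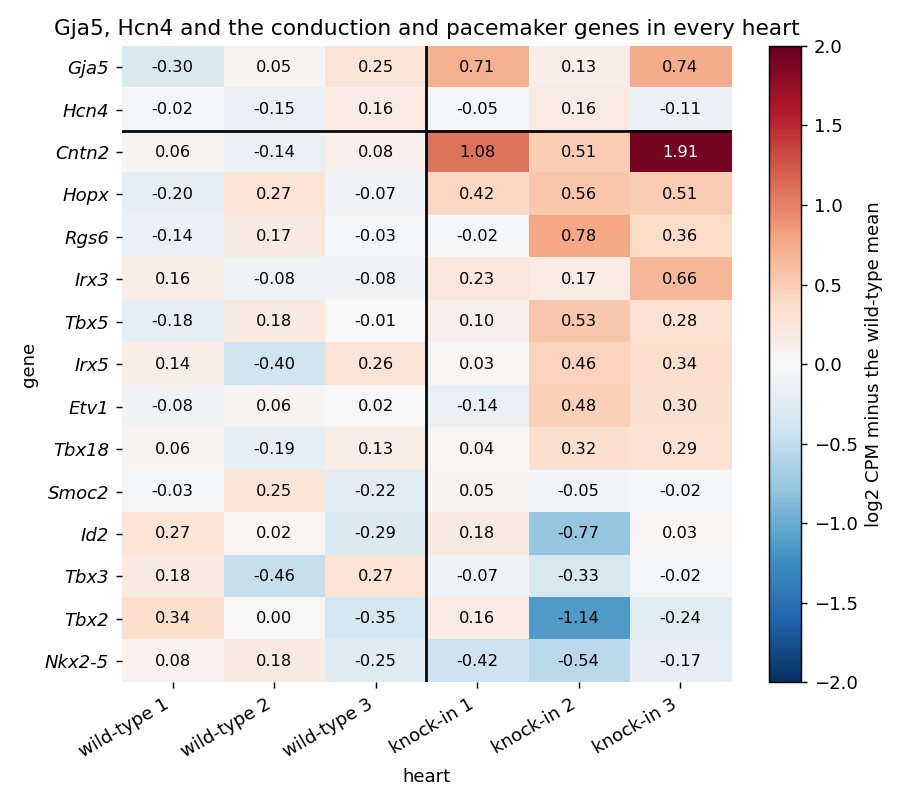
Log2 CPM minus the wild-type mean (colour and printed value) of Gja5, Hcn4 and the 13 tested conduction and pacemaker genes (rows) in each heart (columns). Gja5 and Cntn2 are highest in knock-in replicates 1 and 3, while Hcn4 stays between −0.15 and 0.16 in all 6 hearts.

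At the intercalated disc, where Cx43 and sodium channels cluster, no gene was called with all hearts. Of 23 genes for junctions and channel anchoring, 22 were tested and 0 were called by edgeR or DESeq2, where edgeR called 0.297% of all tested genes. At an unadjusted p under 0.05, 1 was higher, against 4.74% of all tested genes. There were 13 positive and 9 negative values, where 48.3% of all tested genes were positive. Their median of 0.025 turned negative under library-size scaling (−0.012) and without wild-type replicate 1 (−0.022) or knock-in replicate 2 (−0.055). Ctnna1, alpha-catenin of the adherens junction, had the smallest p, at 439 ± 28.0 and 536 ± 4.60 CPM (SD, n = 3; 0.29 ± 0.09 SE, edgeR adjusted p = 0.272). Its values did not overlap. Its call appeared when both wild-type replicate 3 and knock-in replicate 2 were left out (edgeR adjusted p = 0.0360).

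Markers of the cell types that could carry these genes are given beside them, and their part in the values was not tested. The atrial list, of which 8 of 12 were tested, summed to 265 to 392 CPM in wild-type and 363 to 693 CPM in knock-in hearts, with Nppa (187 ± 76.5 and 336 ± 215 CPM, SD, n = 3), the atrial natriuretic peptide that ventricular muscle can also make, as its most abundant gene by mean. The potassium channel genes Kcnj5 (means of 63.0 and 79.9 CPM) and Kcnj3 (means of 52.4 and 50.0 CPM) followed. Sln, Myl7, Bmp10 and Mybphl, with 0 to 9 counts per library, added almost nothing to the sum. The sum is therefore not given as a measure of atrial tissue. In wild-type replicate 3 Nppa had 103 CPM and in knock-in replicate 2 151 CPM, and its log2 fold change of 0.85 ± 0.58 (SE) became 0.23 without knock-in replicate 1. In knock-in replicate 1 Nppa alone had 572 CPM. Of the 8 tested, 0 were called with all hearts, against 0.297% of all tested genes, and 0 were at an unadjusted p under 0.05. Values were positive in 6 and negative in 2, where 48.3% of all tested genes were positive. The median of the 8 was 0.24. The smallest p was that of Dkk3, with 0.92 ± 0.42 (SE; edgeR adjusted p = 0.508). Without knock-in replicate 2 Dkk3 was called at 1.31 (edgeR adjusted p = 0.0380). Nr2f1 lay the other way (−0.65 ± 0.38 SE, edgeR adjusted p = 0.637). The 12 genes of arterial endothelium, where Gja5 and Gja4 are expressed, summed to 174 to 223 CPM in wild-type and 163 to 228 CPM in knock-in hearts, with 0 called, 0 at an unadjusted p under 0.05, 8 positive and 4 negative; Bmx had the smallest p (0.59 ± 0.29 SE, edgeR adjusted p = 0.544).

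The list levels, as the mean log2 CPM relative to all 6 hearts, were lowest in knock-in replicate 2 for arterial endothelium (−0.27), general endothelium (−0.29) and fibroblasts (−0.30). They lay between −0.16 and 0.27 in the other hearts. The 10 genes of general endothelium, the 10 of fibroblasts and the 6 tested of nerve and Schwann cells had 0 called and 0 at an unadjusted p under 0.05, with the smallest p in Kdr (−0.38 ± 0.17 SE), Dcn (0.16 ± 0.09 SE) and Pmp22 (0.19 ± 0.11 SE). In the ventricular list Myl2 was the 1 called gene of 10 (0.55 ± 0.09 SE, edgeR adjusted p = 0.0399), against 0.297% of all tested genes. Its call was lost under library-size scaling (adjusted p = 0.0578) and on leaving out any single heart other than knock-in replicate 2 (adjusted p from 0.0534 to 0.209). The ventricular list had 6 positive and 4 negative values. At an unadjusted p under 0.05, 2 were higher and 1 lower, against 4.74% and 5.23% of all tested genes. The lower gene was Irx4, whose values did not overlap (−0.33 ± 0.11 SE, edgeR adjusted p = 0.333). In the smooth muscle list, with 5 positive and 5 negative values, Acta2 was likewise the 1 called gene of 10 (−1.24 ± 0.12 SE, edgeR adjusted p = 0.00268). The nerve markers Th and Snap25 had 0 counts in all libraries.

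In 4 of the 5 genes the pair of hearts that stood apart held the extreme value of both genotypes on the same side. Scn4b, Gja1 and Hcn4 were highest of their genotype in both wild-type replicate 3 and knock-in replicate 2, a pattern shared by 22% of all tested genes. Hcn2 was lowest in both, as were 22.6% of all tested genes. A gene cannot have both patterns, so these shares add up as the background for the 4 of 5. Gja5 was the exception, highest of its genotype in wild-type replicate 3 and lowest in knock-in replicate 2. The mitochondrial share of counts was 28.0% in wild-type replicate 3 and 22.9% to 24.3% in the other hearts, knock-in replicate 2 included.

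Likeness of pattern was described as Pearson's r of log2 CPM over the 6 hearts against 9069 other tested genes of at least 5 CPM. All points share libraries and scaling, and with 6 points many genes come close by, so no test is given. Scn4b was most like Wdr75 (r = 0.995) and Aldh5a1 (r = 0.994), and Gja1 was most like Gmfb (r = 0.997) and Scoc (r = 0.994). Gja5 was most like Ghdc (r = 0.987) and Kctd20 (r = 0.985), Hcn2 most like Rusc2 (r = 0.986) and Alg3 (r = 0.979), and Hcn4 most like Megf9 and Ppfia1 (both r = 0.989). Gja1 had 205 genes above an r of 0.95, Scn4b 74, Hcn4 28, Hcn2 17 and Gja5 14. None of these 10 genes was called between the genotypes.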

How the data were processed

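Hearts of 6 mice, 3 per genotype, were measured. The deposited values are raw read counts per gene in 1 column per heart, matched to samples by the sample descriptions. Tools listed in the submitters' processing notes, without roles, are STAR, DESeq2, featureCounts and Subread 1.5.2, and the build is GRCm38.p6; no source used here gives the annotation or the strand setting. RNA was isolated on columns and libraries were made with a NEBNext Ultra II kit, per the labels' protocols. Symbols, positions and lengths came from GENCODE M21 (GRCm38), which lacked 259 of the 49315 identifiers, and promoter windows from RefSeq (GRCm38.p6).

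The main test was edgeR 4.0.16 under R 4.3.3 (filterByExpr, TMM, robust glmQLFit and glmQLFTest, all 6 libraries, no covariate) with Benjamini-Hochberg adjustment over all tested genes. SE is the log2 fold change over the square root of F. Log2 CPM used a prior count of 2. Alternatives tried were DESeq2 1.42.0, limma-voom (limma 3.58.1), scaling by RLE, by upper quartile or by library size, a 1 CPM minimum mean or no filter, no robust estimation, no mitochondrial genes and each heart left out. The functions were tested on simulated counts. Named genes are the 5, the family members of at least 1 CPM, the called or smallest-p gene of each of 13 lists and the 2 most alike genes; the 162 list entries all matched. Some genes are not reported here and were left out of the lists. The members and lists were chosen with earlier results of these data known. Replicate numbers follow accession order and pair nothing.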

Additional observations from a re-analysis of the deposited data

How the results depend on the processing

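No paired analysis was possible because the labels number no replicates and tie no wild-type heart to a knock-in heart. All 5 genes stayed uncalled under each alternative with one exception, the fit without both wild-type replicate 3 and knock-in replicate 2, chosen after seeing the data, which called Scn4b (−0.83) and Gja5 (0.85). Scn4b and Hcn2 kept a negative and Gja5 a positive sign throughout. Leaving out single hearts, the log2 fold change ranged from −1.12 to −0.28 for Scn4b, −0.26 to 0.31 for Gja1, 0.40 to 0.72 for Gja5, −0.40 to −0.094 for Hcn2 and −0.075 to 0.086 for Hcn4. The sign of Gja1 turned under upper-quartile (−0.0081) and library-size scaling (−0.034) and without wild-type replicate 1 (−0.19), wild-type replicate 2 (−0.069) or knock-in replicate 2 (−0.26). That of Hcn4 turned under upper-quartile (−0.0088) and library-size scaling (−0.040), with a mean of at least 1 CPM (−0.0017), without mitochondrial genes (−3.9e-05) and without wild-type replicate 1 (−0.012), wild-type replicate 2 (−0.069) or knock-in replicate 2 (−0.075). Of other named genes, Gja4 turned without wild-type replicate 3 (−0.024) or knock-in replicate 3 (−0.083), Scn4a without wild-type replicate 3 (0.15) and Tbx3 without both hearts (0.063). With single hearts left out, the other ends of their ranges were 0.44 for Gja4 and −0.47 for Scn4a, and Tbx3 ran from −0.36 to −0.030. Among uncalled genes, single hearts also moved Cav3 (0.13 without wild-type replicate 3), Tbx5 (0.20 without knock-in replicate 2), Ankrd35 (−1.06 without knock-in replicate 1) and Bmx (0.38 without wild-type replicate 3). Without a filter Cntn2 (adjusted p = 4.3e-05) and Hopx (adjusted p = 0.0019) were called by edgeR.

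The count of called genes over all tested genes, 38 (14 higher, 24 lower), was 317 (144 and 173) without a filter, 131 (58 and 73) with DESeq2, 18 (7 and 11) with limma-voom and 392 (171 and 221) without both hearts. Leaving out single hearts gave 5 to 174, with 2 to 88 higher and 3 to 86 lower. The cause was not tested. Depth limits Gja5, Hcn4, Scn10a and Cntn2, whose counting error alone is 9.37% or more.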
